A study of Mus musculus with 2 samples.

Results

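The MHC class II presentation genes were examined in pancreatic tumors of mice, as 8 genes chosen by symbol among the 32285 genes listed in both libraries. They were H2-Aa, H2-Ab1 and H2-Eb1, which encode chains of the class II molecule, Cd74, H2-DMa, H2-DMb1, Ctss and Ciita. Their transcripts were followed in dendritic cells (DCs), B cells, macrophages, monocytes and epithelial cells, 1354 of the 13921 cells kept. Droplet-based single-cell RNA sequencing had been done 48 h after treatment, with cells of 3 mice pooled into 1 library for each treatment. The study describes the sequenced cells as immune cells of the tumors. The mice were C57BL/6J males with orthotopic K210 tumors, a pancreatic tumor cell line from mice that carry Pdx1-Cre and Trp53 fl/fl, so a single tumor line stands behind both groups. The methods of the study give mice of 5 to 6 weeks. One group received phosphate-buffered saline (PBS). The other received cmExoaCD11b, exosomes that carry an antibody against CD11b and are loaded with IL-12 mRNA and with 2′3′-cGAMP, an agonist of STING, at 5 µg of cGAMP per mouse. The comparison asks whether the treatment went with a different level of antigen-presentation transcripts in each type of cell.

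Class II molecules show peptides from ingested proteins to CD4+ T cells. Their α and β chains assemble with the invariant chain Cd74, the protease cathepsin S (Ctss) trims that chain, and the DM heterodimer of H2-DMa and a DM β chain exchanges the remaining fragment for antigenic peptides. The transactivator Ciita binds to the factors sitting on class II promoters, among them RFX on the X box and NF-Y on the Y box, and DCs, B cells and some macrophages are known to express the set, while interferon-γ can induce it in other cells.

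To show the shared promoter elements, the RefSeq windows of 2 members with the ordered pair of boxes and of 1 member without that pair are given (GRCm38.p6, 250 bases before to 50 after the start site, read along the strand of the gene). The capitals mark ACNGATG, the X box core used here, when ATTGG, the Y box core, follows within 40 bases, and for H2-Aa they mark ATTGG alone. The H2-Aa window also held ACNGATG on the opposite strand, which is not marked. The windows are chr17:34305617-34305916 on the + strand for H2-Eb1, chr17:34152941-34153240 on the + strand for H2-DMb1 and chr17:34287774-34288073 on the - strand for H2-Aa.
H2-Eb1: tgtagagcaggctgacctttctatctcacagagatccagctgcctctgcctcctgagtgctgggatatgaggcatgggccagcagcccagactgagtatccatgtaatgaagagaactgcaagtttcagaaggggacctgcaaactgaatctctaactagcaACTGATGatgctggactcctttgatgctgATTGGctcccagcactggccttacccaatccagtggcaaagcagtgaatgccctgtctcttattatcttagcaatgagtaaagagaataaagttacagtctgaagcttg
H2-DMb1: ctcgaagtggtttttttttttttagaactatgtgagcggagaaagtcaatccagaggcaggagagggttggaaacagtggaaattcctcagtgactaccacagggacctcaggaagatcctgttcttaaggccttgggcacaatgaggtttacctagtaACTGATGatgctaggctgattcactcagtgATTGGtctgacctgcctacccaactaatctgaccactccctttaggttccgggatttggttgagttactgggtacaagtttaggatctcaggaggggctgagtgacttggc
H2-Aa: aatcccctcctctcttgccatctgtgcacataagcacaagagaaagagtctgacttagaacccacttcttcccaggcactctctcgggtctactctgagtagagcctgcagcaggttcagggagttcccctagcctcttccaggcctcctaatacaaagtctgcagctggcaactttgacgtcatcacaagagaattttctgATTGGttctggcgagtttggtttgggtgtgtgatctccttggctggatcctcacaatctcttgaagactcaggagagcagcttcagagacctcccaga
In H2-Eb1 the X core began 88 bases before the start site and 22 bases separated it from the Y core, and in H2-DMb1 it began 91 bases before with 23 bases between. The table held windows for 5 of the 8 members, and both strands were searched. The ordered pair was found for 2 of these 5 genes and, among other genes of the pathway, for H2-DMb2 and H2-Eb2, against 0.298% of all 32851 windows. ATTGG alone was in 37.4% of all windows and ACNGATG alone in 9.85%. A match describes letters and not a bound site.

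Cells were assigned to a type only where at least 3 unique molecular identifiers (UMIs) of at least 2 of its marker genes were present and their sum was at least 2 times that of every other type. None of the 8 genes was a marker, and H2-Aa, which the study used for DCs, was therefore not part of the DC gate. The gates held 36 DCs in PBS and 64 in cmExoaCD11b, 283 and 317 B cells, 318 and 83 macrophages, 66 and 123 monocytes, and 38 and 26 epithelial cells. Some of the genes left out of the gates were read as a check, with another type beside them for Cst3 and Blk only. Levels are UMIs of a gene scaled to 1000000 UMIs of the same cells (CPM), and in this unit Cst3 was at 11437 and 9346 in DCs against 125 and 140 in T cells, for PBS and cmExoaCD11b in this order. Blk, a kinase of B cells, was at 578 and 365 in B cells against 5.93 and 7.90 in T cells, Apoe was at 15432 and 6709 in macrophages, Lyz2 at 11319 and 8449 in monocytes and Cdh1 at 295 and 255 in epithelial cells. Itgax, the DC integrin CD11c, was at 252 and 92.0 in DCs. The values in T cells do not show how far the DC gate is separated from macrophages and monocytes. The libraries held 67143628 and 81288480 UMIs over all droplets, and 16 kept barcodes occurred in both, 0.234% and 0.226% of the kept cells. Since each treatment has 1 library, no test between treatments was possible. All intervals are exact 95% intervals that cover counting error only, and a gene was called different at a ratio of 2 or more in either direction.

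The 4 most abundant class II transcripts, H2-Aa, H2-Ab1, H2-Eb1 and Cd74, were summed to place the cell types. In PBS the summed level was 41444 CPM in DCs (95% interval 40856 to 42038), 13226 in B cells (13060 to 13393) and 7945 in macrophages (7864 to 8027). It was 143 in monocytes (119 to 171) and 90.0 in epithelial cells (74.0 to 109). DCs thus had the highest level, followed by B cells and macrophages, and the intervals of these 3 types did not overlap. In cmExoaCD11b the sum was 33897 in DCs, 9528 in B cells, 11671 in macrophages, 1132 in monocytes and 521 in epithelial cells. Macrophages thus stood above B cells in this pooled sum, but not cell by cell. With each cell thinned to 1000 UMIs, the median B cell of cmExoaCD11b held 13 UMIs of the 4 genes and the median macrophage 1.

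Low values in these data can include free RNA. Empty droplets held 2709.5 CPM of the 4 transcripts in PBS and 1959.5 in cmExoaCD11b. From neutrophil and B cell genes seen in other cells, free RNA was estimated at 2.41% to 7.83% of the UMIs of a PBS cell and 1.86% to 8.17% in cmExoaCD11b, which would give 65.4 to 212 CPM and 36.4 to 160 CPM. The PBS levels in monocytes, epithelial cells and T cells (148 CPM) lay within that range. Cd74 made up 52.9%, 64.5% and 53.7% of their 4-gene UMIs in this order, against 41.2% in empty droplets of PBS. How much of these levels is free RNA was not tested. The free RNA estimates came from B cells, T cells and neutrophils only. PBS monocytes and epithelial cells were deeper (medians of 12117 and 29517 UMIs, against 5152 in T cells). The range may therefore not hold for them, and its upper end lay above the PBS levels of all 3 types. Empty droplets held less of the 4 transcripts in cmExoaCD11b than in PBS. In cmExoaCD11b these 3 cell types were at 1132, 521 and 562 CPM, above its range. Without the 2 cells of each that held the most UMIs of the 4 genes, they were at 342, 148 and 163 CPM. Of these, only the epithelial value lay within the range.

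**Figure D1:**
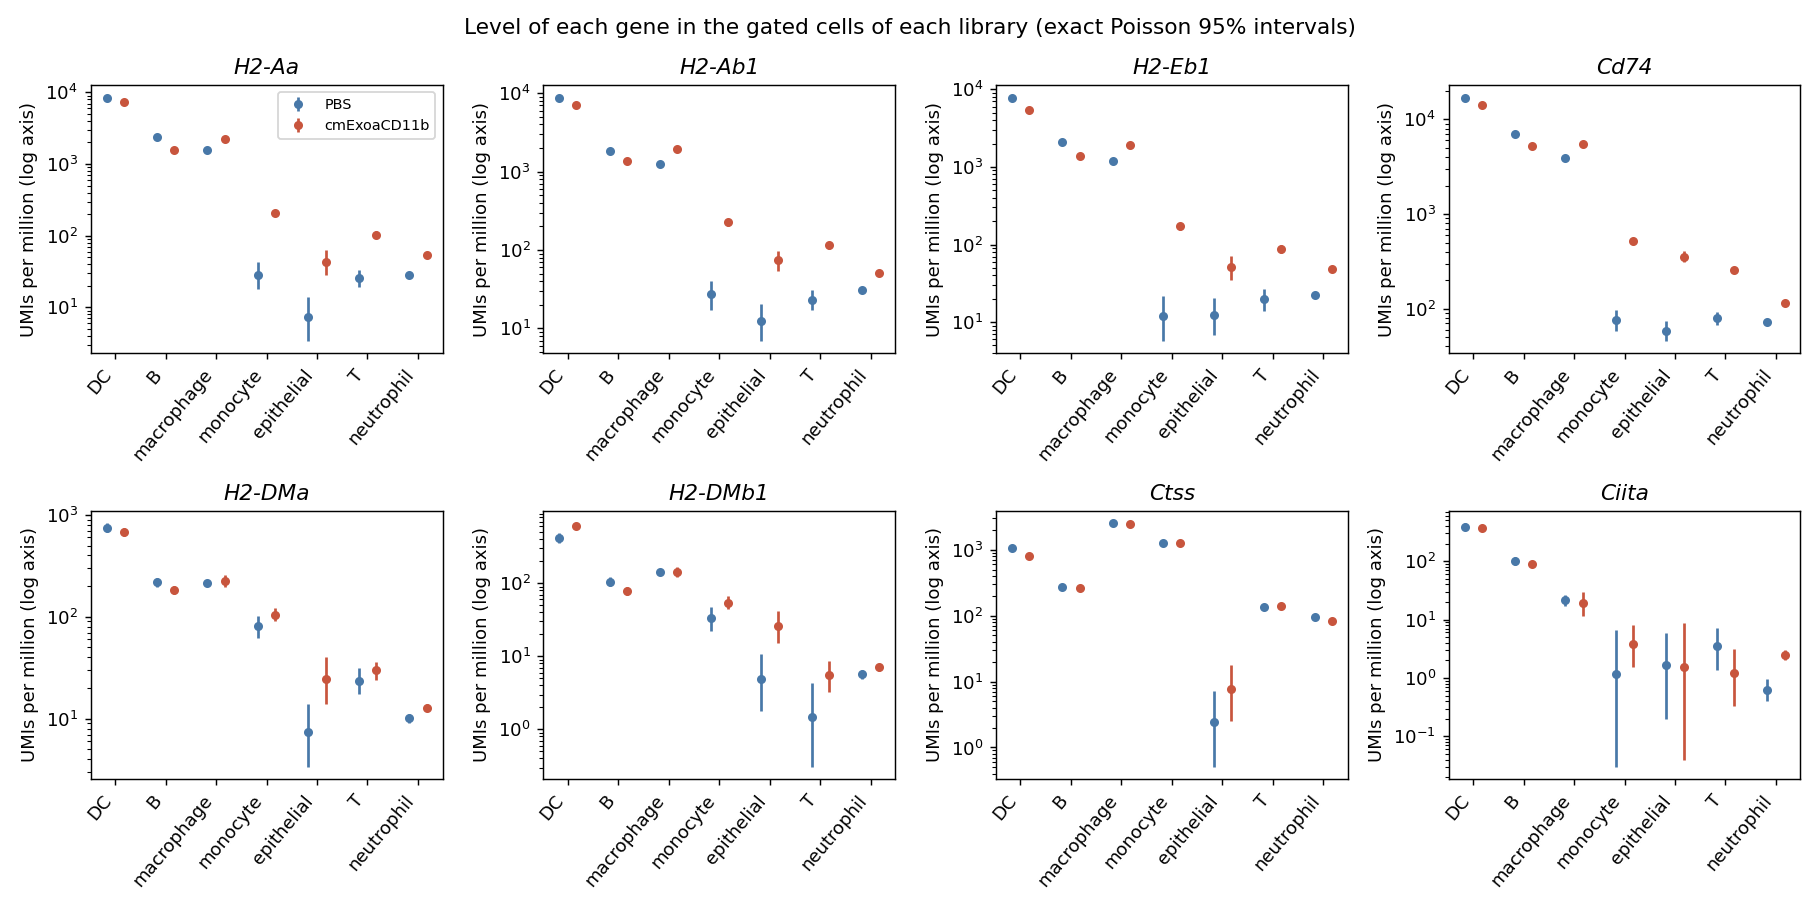
Level of each of the 8 genes in CPM (log axis) in 7 gated cell types, with PBS in blue and cmExoaCD11b in red and exact Poisson 95% intervals as bars. Ctss is highest in macrophages and monocytes. H2-Aa, H2-Ab1, H2-Eb1 and Cd74 are highest in DCs. For these classical genes the separation of the libraries is widest in monocytes, epithelial cells and T cells.

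DCs carried less of the α and β chains in cmExoaCD11b than in PBS, although no gene was lower by 2-fold. H2-Aa was at 8325 CPM in PBS and 7264 in cmExoaCD11b (ratio 0.873, 0.838 to 0.909), and H2-Ab1 at 8662 and 7123 (0.822, 0.790 to 0.856). H2-Eb1 showed the lowest ratio, from 7669 to 5480 CPM (0.715, 0.684 to 0.747). Cd74 went from 16789 to 14031 CPM (0.836, 0.812 to 0.860). All 4 were therefore lower beyond counting error in this gate, but with DC markers required at 4 times those of other types H2-Aa turned to 1.39, H2-Ab1 and H2-Eb1 to 1.03 and Cd74 to 0.995. None of the 8 genes passed 2-fold, where 11.4% of the 4215 genes with at least 50 UMIs in DCs did so in either direction (6.74% higher and 4.63% lower), and the median ratio was 0.854 over the members and 1.07 over all these genes.

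The other members in DCs did not all move in the direction of the chains. Ctss was lower, with 1052 CPM in PBS and 814 in cmExoaCD11b (0.774, 0.688 to 0.871). H2-DMa was at 750 and 681 CPM (0.907, 0.793 to 1.04) and Ciita at 389 and 366 CPM (0.940, 0.779 to 1.14), differences within counting error. In the stricter gate H2-DMa was at 1.63 and Ctss at 1.49. H2-DMb1 was the single member above 1, with 418 CPM in PBS and 616 in cmExoaCD11b (1.47, 1.25 to 1.75). Its paralog H2-DMb2, the second gene for a DM β chain, was called lower, from 453 to 156 CPM (0.344, 0.274 to 0.430).

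The summed level of the DM β pair was nearly the same in the DCs of both libraries (0.886, 0.781 to 1.01), so the difference lay in its composition. H2-DMb1 made up 47.99% of the 398 UMIs of the pair in PBS (43.0% to 53.0%) and 79.8% of 654 in cmExoaCD11b (76.5% to 82.8%). It exceeded H2-DMb2 in 15 of 36 DCs and was exceeded in 16 in PBS, whereas in cmExoaCD11b the counts were 40 and 7 of 64. No single cell held most UMIs of either gene. The highest H2-DMb1 count in a cell was 22 of 191 UMIs in PBS and 38 of 522 in cmExoaCD11b. For H2-DMb2 it was 27 of 207 in PBS and 40 of 132 in cmExoaCD11b. Among type 1 DCs alone the share went from 51.3% to 85.3%. In type 2 DCs it was 43.1% (34.4% to 52.0%) and 55.7% (46.1% to 64.9%), with overlapping intervals. B cells had 22.8% in PBS and 26.0% in cmExoaCD11b, and macrophages 89.2% and 88.8%, with overlapping intervals in each. The 2 genes are close copies, so reads that could come from either are a source of uncertainty in these shares.

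**Figure D2:**
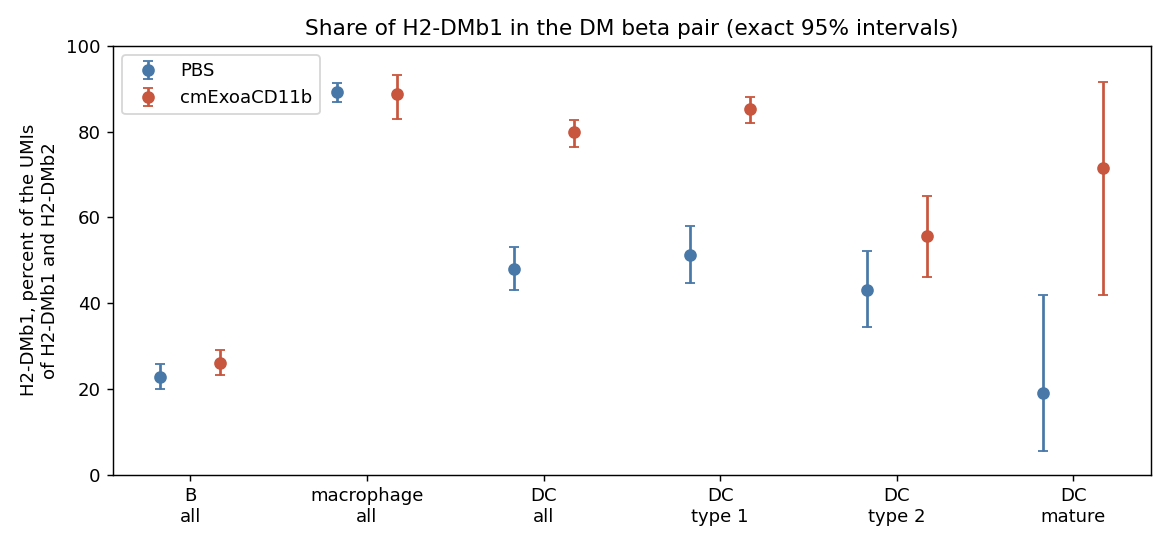
Percent of the UMIs of the DM β pair that belong to H2-DMb1 (vertical axis, 0 to 100) in B cells, macrophages, all DCs and 3 DC subsets, with exact 95% intervals, PBS in blue and cmExoaCD11b in red. The 2 libraries overlap in B cells and macrophages and lie apart in all DCs (47.99% and 79.8%) and in type 1 DCs (51.3% and 85.3%).

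The makeup of the DC gate differed between the libraries. Type 1 DCs, which are marked by Xcr1, Clec9a and Wdfy4 and known for cross-presentation, were 23 of 36 cells in PBS and 50 of 64 in cmExoaCD11b. Their summed level was 35823 CPM in PBS and 32749 in cmExoaCD11b (0.914, 0.893 to 0.936). Type 2 DCs, marked by Cd209a, Clec10a and Mgl2 and known for presentation to CD4+ T cells, were 5 and 6 cells with the highest level of all, 61886 and 57152 CPM (0.924, 0.891 to 0.958). Mature DCs, marked by Ccl22, Fscn1, Ccr7 and Cacnb3, were 7 and 6 cells, at 21577 and 14722 CPM (0.682, 0.615 to 0.757). In this sum each of the 3 subsets lay below its PBS value. The difference was smaller in type 1 and type 2 DCs than in the whole gate (0.818, 0.803 to 0.833). H2-Aa was within counting error in type 1 DCs (1.00, 0.953 to 1.06) and in type 2 DCs (0.963, 0.889 to 1.04). H2-Ab1 and H2-Eb1 were lower in type 1 DCs (0.930 and 0.816) and type 2 DCs (0.859 and 0.779). In mature DCs H2-Aa was lower (0.688, 0.560 to 0.845), while H2-Ab1 (0.967, 0.767 to 1.22) and H2-Eb1 (0.961, 0.775 to 1.19) were within counting error. In type 2 DCs Cd74 differed by less than counting error (1.01, 0.952 to 1.07) and Ctss was higher (1.34, 1.09 to 1.65), while in mature DCs Cd74 was at 7907 CPM in PBS and 3101 in cmExoaCD11b (0.392, 0.318 to 0.482). The gate also held cells with little class II. Cells with less than 1% of their UMIs in the 4 genes were 8 of 36 in PBS and 23 of 64 in cmExoaCD11b, with DC markers at 3134 and 4146 CPM. They were shallower, with medians of 4200 and 3169 UMIs against 15193.5 and 17077 in the other cells of the gate. Their neutrophil markers were at 755 and 993 CPM against 356 and 373. With a stricter gate, in which DC markers had to reach 4 times those of other types, 12 and 36 cells remained and the direction turned (1.07).

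**Figure D3:**
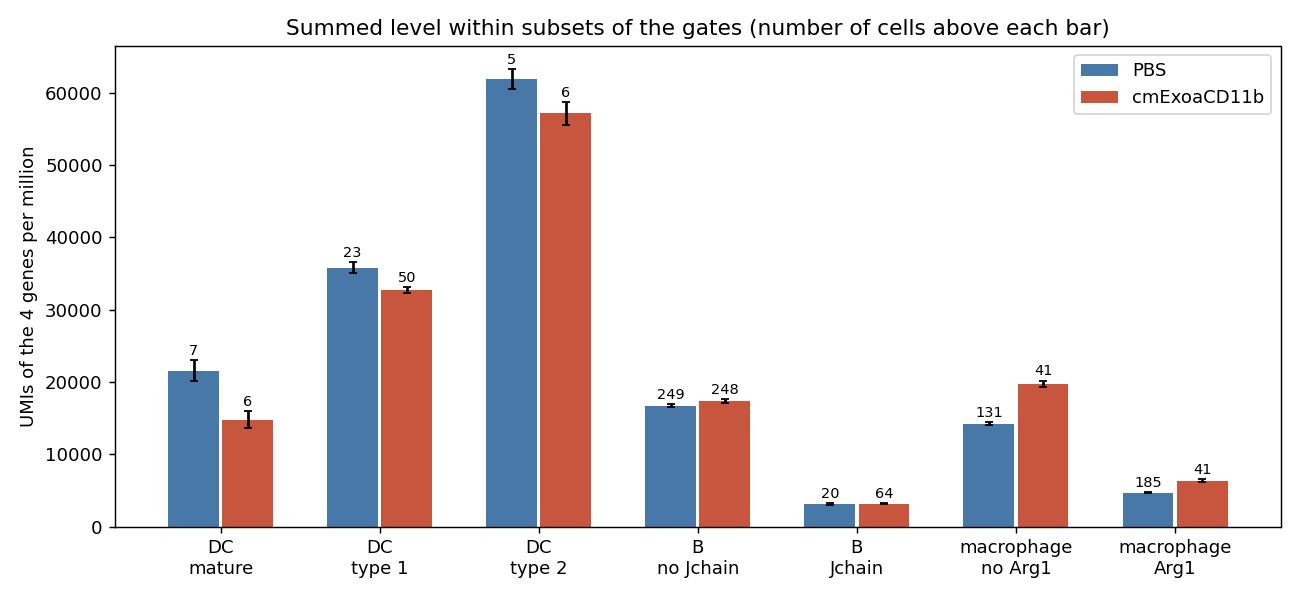
Summed level of H2-Aa, H2-Ab1, H2-Eb1 and Cd74 in CPM (vertical axis from 0) in subsets of the DC, B cell and macrophage gates, with exact Poisson 95% intervals and the number of cells above each bar, PBS in blue and cmExoaCD11b in red. Type 2 DCs are highest (61886 and 57152), B cells with Jchain are lowest (3117 and 3161), and only macrophages without and with Arg1 and B cells without Jchain stand higher in cmExoaCD11b by more than their intervals.

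In B cells all 8 genes had a ratio below 1, with a median of 0.745 against 0.939 over the 7574 genes tested. H2-Aa was at 2355 CPM in PBS and 1577 in cmExoaCD11b (0.670, 0.642 to 0.698), H2-Eb1 at 2068 and 1402 (0.678, 0.648 to 0.709) and Cd74 at 6976 and 5199 (0.745, 0.728 to 0.763). H2-Ab1 (0.739), H2-DMa (0.838) and H2-DMb1 (0.745) were also lower beyond counting error. Ctss (0.969, 0.864 to 1.09) and Ciita (0.881, 0.727 to 1.07) were not. No member passed 2-fold, as 5.37% of the genes tested did (3.04% higher and 2.34% lower).

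The lower level went with the share of cells that expressed Jchain. This gene, which encodes the joining chain of secreted antibodies and marks plasma cells, was found after thinning each cell to 1000 UMIs in 20 of 269 B cells in PBS (7.43%) and in 64 of 312 in cmExoaCD11b (20.5%). These cells held many more UMIs than the others, with medians of 21336 and 26102 against 3551 and 4079, and weighed more in the sums. In the B cells with no Jchain UMI after thinning, 249 and 248 cells, the summed class II level over their full counts was 16736 CPM in PBS and 17387 in cmExoaCD11b, and the direction turned (1.04, 1.02 to 1.06). In those with Jchain it was 3117 and 3161 CPM (1.01, 0.956 to 1.08). The summed level was therefore no lower in cmExoaCD11b within either kind of B cell, although single genes moved apart in those with Jchain. There H2-Ab1 (1.43, 1.21 to 1.69) and H2-Eb1 (1.38, 1.14 to 1.67) were higher, Cd74 was lower (0.890, 0.828 to 0.958) and H2-Aa was within counting error (1.03, 0.860 to 1.25). Without Jchain, H2-Aa (1.02, 0.974 to 1.06), H2-Ab1 (1.02, 0.967 to 1.07) and H2-Eb1 (0.983, 0.938 to 1.03) did not differ beyond counting error, while Cd74 was slightly higher (1.07, 1.04 to 1.10). In the same cells Ciita went from 130 to 186 CPM (1.43, 1.17 to 1.75), H2-DMa from 279 to 344 (1.23, 1.07 to 1.41) and Ctss from 311 to 369 (1.19, 1.04 to 1.36). The split by Jchain was chosen after the values had been seen.

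Macrophages had more of the chains in cmExoaCD11b and a like level of the other members. H2-Aa was at 1567 CPM in PBS and 2256 in cmExoaCD11b (1.44, 1.37 to 1.51), H2-Ab1 at 1268 and 1946 (1.54, 1.46 to 1.62) and H2-Eb1 at 1188 and 1918 (1.61, 1.53 to 1.70). Cd74 went from 3923 to 5552 CPM (1.42, 1.37 to 1.46). These 4 were higher beyond counting error, but below 2-fold. Ctss was at 2503 and 2427 CPM (0.969, 0.927 to 1.01), H2-DMa at 215 and 223 (1.04, 0.893 to 1.20), H2-DMb1 at 145 and 144 (0.993, 0.823 to 1.19) and Ciita at 21.3 and 19.1 (0.895, 0.517 to 1.47), each with an interval that held 1. No member of 8 was called, beside 7.41% of the 8214 genes tested (3.94% higher and 3.47% lower), and the members' median ratio was 1.23 against 1.05.

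The class II transcripts of macrophages came from a minority of cells. The median cell had 1 UMI of the 4 genes per 1000 in both libraries. Cells with at least 1% of their UMIs in the 4 genes were 65 of 318 in PBS (20.4%, 16.1% to 25.3%) and 24 of 83 in cmExoaCD11b (28.9%, 19.5% to 39.9%), and they held 82.8% and 91.2% of the transcripts. The 2 shares come from 1 library each and their difference was not tested. Within these cells the summed level was 28277 CPM in PBS and 31323 in cmExoaCD11b. In the other 253 and 59 macrophages it was lower in cmExoaCD11b, at 1784 and 1557 CPM. Macrophages were also split by Arg1, an arginase gene of suppressive tumor macrophages. Those without an Arg1 UMI after thinning carried 14248 CPM in PBS and 19757 in cmExoaCD11b (1.39, 1.35 to 1.42), and those with Arg1 carried 4676 and 6325 (1.35, 1.30 to 1.40). The ratio was thus near that of the whole gate (1.47) in both kinds, while cells without Arg1 were 131 of 316 in PBS and 41 of 82 in cmExoaCD11b.

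Monocytes showed the largest ratios of the 3 myeloid gates, and these rested on very few cells. H2-Aa was at 28.4 CPM in PBS and 209 in cmExoaCD11b (7.37, 4.88 to 11.6), H2-Ab1 at 27.2 and 226 (8.31, 5.46 to 13.3), H2-Eb1 at 11.8 and 171 (14.4, 7.74 to 30.4) and Cd74 at 75.8 and 525 (6.93, 5.37 to 9.07). These 4 of the 7 members with at least 50 UMIs passed 2-fold upward, against 4.37% of the 6020 genes tested, while 1.64% passed it downward and 6.01% in all. Ctss, which monocytes express strongly, was level at 1241 and 1260 CPM (1.02, 0.943 to 1.09). H2-DMa (1.30, 0.983 to 1.75) and H2-DMb1 (1.64, 1.07 to 2.59) were below 2-fold, and Ciita had 1 and 7 UMIs. The median ratio of the 7 members was 6.93, beside 1.04 over all genes tested.

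The share of monocytes with any UMI of the 4 genes was no higher in cmExoaCD11b. After thinning to 1000 UMIs it was 12.1% in PBS (8 of 66 cells) and 11.5% in cmExoaCD11b (14 of 122), and H2-Aa was found in 3.03% and 5.74%, beside 2.45% and 2.59% of T cells, at median depths of 12117 and 13413 UMIs in monocytes and 5152 and 4528 in T cells. Of the 2059 UMIs in cmExoaCD11b monocytes, 2 cells held 745 and 705, or 70.4%. The remaining 121 cells were at 342 CPM (315 to 370), and the PBS monocytes without their 2 leading cells were at 105 CPM (84.0 to 130). Thus the level of the other cells still lay above the PBS value, by much less than in the whole gate. Of their 609 UMIs, single cells held 141, 133 and 107, so this higher level also came largely from few cells. The level without these cells as well was not measured. The 2 leading cells carried 18 and 23 monocyte marker UMIs, 8 and 4 of macrophages, 1 and 2 of DCs, 0 and 1 of B cells and 0 and 10 of T cells. Over all cmExoaCD11b monocytes, DC markers were at 77.5 CPM with 4 of 10 present and Xcr1, Cd209a, Ccl22, Fscn1, Siglech and Cacnb3 at 0. In PBS they were at 65.1 CPM with 3 of 10 present. The part of other cell types in the result was not tested. With cells admitted when monocyte markers merely exceeded those of every other type, the summed ratio was 1.67 and below 2-fold. In cells with no marker UMI of DCs, B cells or macrophages, 6 and 8 in number, it turned to 0.696.

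**Figure D4:**
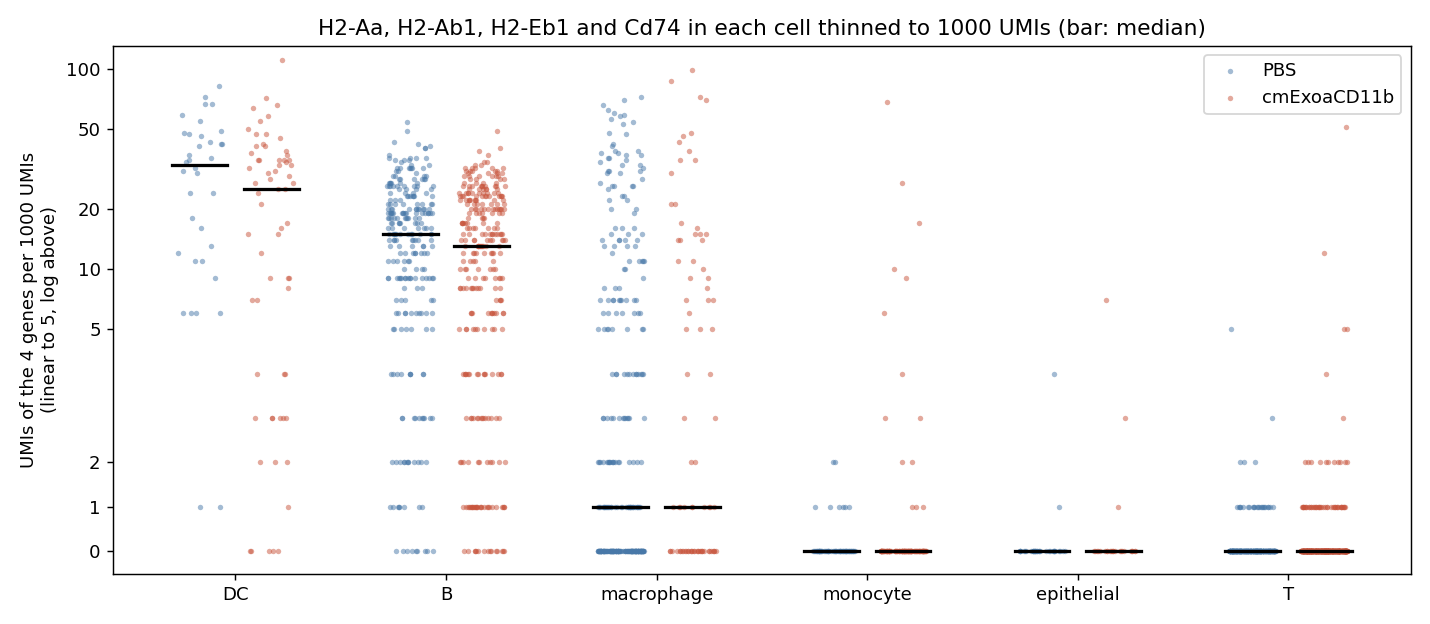
Each point is a cell thinned to 1000 UMIs, with the number of its UMIs that belong to H2-Aa, H2-Ab1, H2-Eb1 or Cd74 on the vertical axis (linear to 5, log above) and a bar at the median, PBS in blue and cmExoaCD11b in red. DCs and B cells are mostly above 5, macrophages spread from 0 to nearly 100 around a median of 1, and monocytes, epithelial cells and T cells lie at 0 apart from single cells.

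Epithelial cells, whose gate does not separate tumor cells from normal epithelium, held few class II transcripts in either library. Cd74 was at 58.1 CPM in PBS and 354 in cmExoaCD11b (6.09, 4.64 to 8.06), and H2-Ab1 at 12.3 and 73.8 (6.01, 3.31 to 11.6). These were the 2 members with at least 50 UMIs and both passed 2-fold upward, against 1.52% of the 5451 genes tested, while 3.65% passed it downward and 5.17% in all. Their median ratio was 6.05, beside 0.939 over all these genes. H2-Aa had 9 and 28 UMIs, H2-Eb1 15 and 33, H2-DMa 9 and 16, H2-DMb1 6 and 17, Ctss 3 and 5, and Ciita 2 and 1. Of the 339 UMIs of the 4 genes in cmExoaCD11b, 2 of the 26 cells held 146 and 107. The other 24 cells were at 148 CPM (119 to 183), and the 36 PBS cells without their 2 leading cells at 60.9 (47.3 to 77.2). Both leading cells were rich in epithelial markers, with 922 and 720 UMIs, had no B cell or macrophage marker UMI, and had 7 and 3 UMIs of DC markers. Cd74 made up 64.5% of the 4-gene UMIs in PBS epithelial cells and 67.8% in cmExoaCD11b, where empty droplets had 41.2% and 39.7%. A UMI of H2-Aa was present in 2 of 36 and 1 of 26 thinned cells, a difference that cannot be read at this depth. With each cell weighted equally the summed ratio was 1.40, below 2-fold, and in the 7 and 9 cells without a marker UMI of DCs, B cells or macrophages it turned to 0.949.

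**Figure D5:**
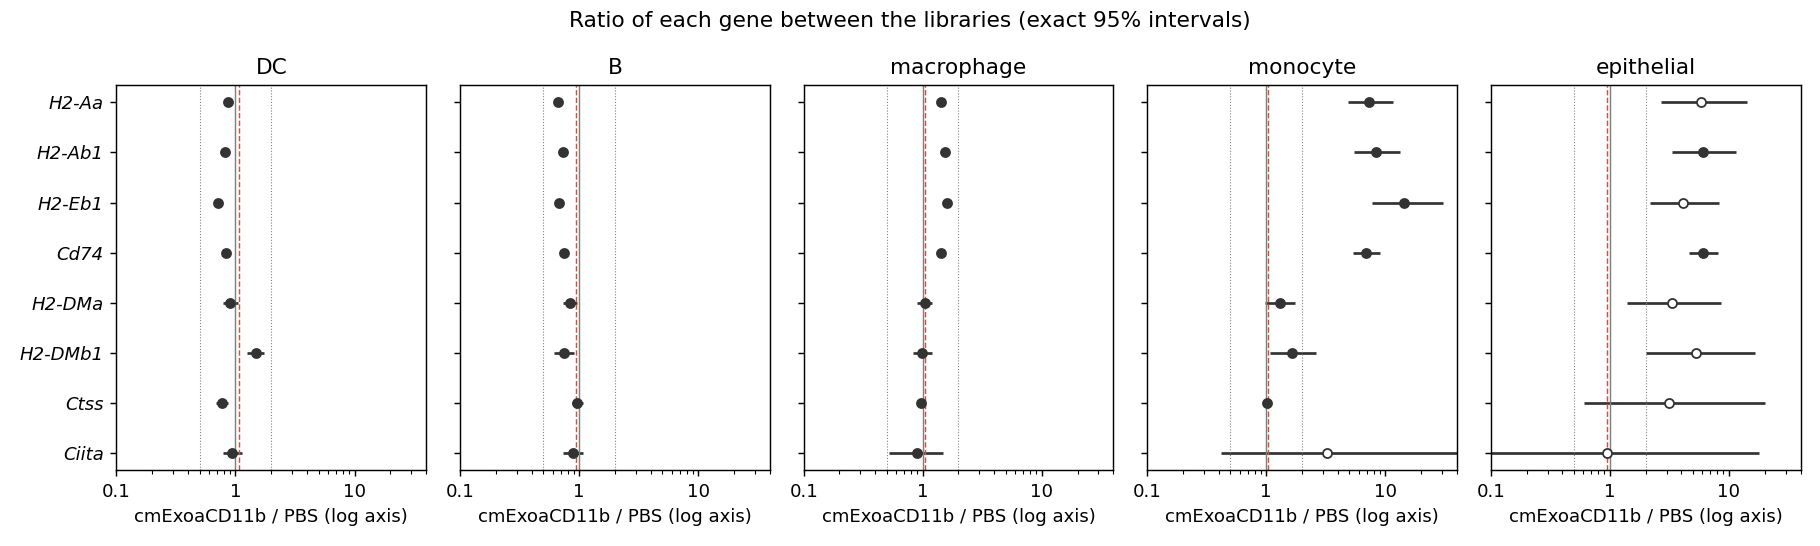
Ratio of the level in cmExoaCD11b to that in PBS (log axis) for the 8 genes in 5 cell types, with exact 95% intervals, filled points for genes with at least 50 UMIs in the type and open points for fewer. Dotted lines mark 2-fold in either direction and the dashed red line the median ratio of all genes tested, and the 4 classical genes lie left of 1 in DCs and B cells, right of 1 in macrophages and beyond 2-fold in monocytes.

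A list of 28 other genes of the pathway was read in the same way. In DCs 20 had at least 50 UMIs, of which 3 passed 2-fold upward and 3 downward, beside 6.74% and 4.63% of all genes tested in these cells. Those higher were Irf8, a transcription factor of type 1 DCs (558 to 1160 CPM, 2.08), the endosomal protease gene Lgmn (43.7 to 112, 2.56) and the costimulatory receptor gene Cd40 (37.2 to 77.9, 2.09). Those lower were H2-DMb2, H2-Oa, a chain of the DM inhibitor DO (243 to 106, 0.437), and the costimulatory ligand gene Cd80 (109 to 47.2, 0.432). In B cells 27 genes were measured and 3 passed 2-fold, all downward (2.34% of all genes tested passed downward), namely Spib (92.97 to 38.1, 0.410), a transcription factor of B cells, the protease gene Ctsl (31.5 to 12.2, 0.388) and Cd40 (42.9 to 21.3, 0.496). In monocytes 1 of 20 passed upward, Irf1, an interferon-induced activator (60.4 to 274, 4.53), and 1 downward, Lgmn (370 to 163, 0.442), beside 4.37% and 1.64% of all genes tested. In macrophages 0 of 22 and in epithelial cells 0 of 12 passed 2-fold, beside 7.41% and 5.17% of all genes tested. Below that threshold the protease genes Ctsb (0.817), Ctsd (0.675), Ctsh (0.702), Ctsl (0.557) and Lgmn (0.687) were lower in macrophages beyond counting error. Ifi30 (1.07, 0.995 to 1.15) was not. Of the other listed genes, Cd83 (0.600), Cd86 (0.841) and Spi1 (0.882) were also lower in macrophages beyond counting error. Creb1 (1.31), Irf1 (1.25) and Ifngr1 (1.20) were higher there beyond counting error. Cd40 thus stood higher in DCs, on 17 and 66 UMIs, and lower in B cells. Lgmn stood higher in DCs, on 20 and 95 UMIs, and lower in monocytes. The list was read over whole gates, and the share of B cells with Jchain and of type 1 DCs differed between the libraries. The part of this makeup in the values was not tested. The median ratio of the list was 0.828 in DCs, 0.755 in B cells, 0.891 in macrophages, 0.915 in monocytes and 1.05 in epithelial cells.

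Among the kept cells, those that carried the class II transcripts differed between the libraries. Macrophages held 33.9% of all UMIs of the 4 genes in PBS and 9.88% in cmExoaCD11b, where they were also fewer. DCs held 17.4% and 24.4%, B cells 22.4% and 23.2%, and cells without an assigned type 20.9% and 28.4%. Over all kept cells the summed level was 2164 and 1893 CPM (0.875, 0.867 to 0.882), and Ctss, most abundant in macrophages, was at 416 and 229 CPM (0.552, 0.540 to 0.564). Within macrophages the level of Ctss was close to equal (0.969), while macrophages went from 318 to 83 cells and from 55.5% to 16.9% of the UMIs of Ctss.

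Among 11230 genes with at least 200 UMIs, those most like the mean of the 4 genes over the 16 profiles of 8 cell types in 2 libraries were sought by Pearson's r of log2(CPM + 1). The profiles share their libraries, and r is a description. Of the members outside the mean, Ciita (r = 0.937), H2-DMa (0.925) and H2-DMb1 (0.894) were among the first 14 genes, while Ctss was at rank 203 (0.635). The 5 most similar genes that are no members were Gm20513 (0.938), Dnase1l3 (0.917), Cd36 (0.911), Kmo (0.909) and Rasgef1b (0.906). Gm20513 overlaps H2-Eb1 on the opposite strand in the annotation and its reads are uncertain. Dnase1l3, an extracellular DNase of DCs, was at 48.1 CPM in the DCs of PBS and 145 in those of cmExoaCD11b, and Kmo, an enzyme of tryptophan breakdown, at 214 and 204.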

How the data were processed

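For each library the authors deposited UMI counts by gene and barcode, made from Chromium 3' v3.1 libraries with Cell Ranger 7.1.0 as the file headers name it, neither normalized nor filtered. The genome build was not given in the sources used here.

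A barcode was taken as a cell if its UMIs exceeded 10% of the 99th percentile among the 3000 largest, or, from 500 UMIs on, if a multinomial test against empty droplets passed an adjusted p of 0.01. Those with fewer than 200 genes or over 20% mitochondrial UMIs were left out. The automatic threshold of Scrublet marked 0 cells, and the highest scores were removed instead, up to 0.8% per 1000 cells (422 and 454 cells), leaving 6839 and 7082 with medians of 3463 and 4100.5 UMIs. The work used Python 3.11.15, scanpy 1.11.5, numpy 2.4.6 and scipy 1.17.1. The ratio intervals were checked on simulated Poisson counts only, which hold no variation between cells or mice.

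UMIs were summed per type and library and divided by all UMIs of the type. Intervals were exact Poisson for levels, Clopper-Pearson for shares and exact conditional for ratios. The intervals hold no variation between mice. For shares of cells, each cell was thinned to 1000 UMIs and shallower cells were left out, at most 14 in the 5 types (B cells of PBS). Cells were assigned from 10 DC, 8 B, 9 macrophage, 4 monocyte and 7 epithelial markers.

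The members and lists were chosen with earlier results of these data known. The genes named were all members, each gene of the pathway list past 2-fold with at least 50 UMIs, and the 5 genes most like the members. For macrophages the genes of the list that differed beyond counting error and Ifi30 were named as well, chosen after seeing the data. Alternatives covered cell calling, doublets, the mitochondrial filter, the gates, scaling, depth, weighting and free RNA, and 3 more were chosen after seeing the data, as were the threshold of 1% of UMIs, the look at the 2 leading cells and the sum of the DM β pair. Promoter windows came from RefSeq. An item of the pathway list and an allele of the tumor line are not reported here. Flow cytometry and other experiments of the study were not analysed here.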

Additional observations from a re-analysis of the deposited data

Results flagged for a closer look

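The summed level of H2-Aa, H2-Ab1, H2-Eb1 and Cd74 moved in opposite directions in the monocyte and B cell gates. The ratio of cmExoaCD11b to PBS was 7.90 in monocytes and 0.720 in B cells. In cmExoaCD11b 2 monocytes held 70.4% of the UMIs. Within B cells the ratio was 1.04 without Jchain and 1.01 with Jchain, so the lower level was not seen within either kind. The difference between the 2 types was not tested, because each treatment has 1 library.

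T cells are not among the 5 cell types compared and served as a reference. They also had a higher summed level in cmExoaCD11b, with 562 CPM against 148 CPM and a ratio of 3.79. One T cell held 1193 of the 1850 UMIs, with 35 T cell and 6 DC marker UMIs among its 23906, and a second held 125. The other 617 cells were at 163 CPM (150 to 178), and in PBS the 325 cells without the 2 leading ones were at 110 CPM (95.8 to 126).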

How the results depend on the processing

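No paired analysis was possible because each library came from its own mice, and leaving out a replicate was not possible with 1 library per treatment. The ratio of the 4-gene level stayed above 1 in macrophages under all 11 alternatives (1.39 to 2.19), and below 1 in DCs and in B cells under 11 of 12 each. The cause of the shifts was not tested. Some alternatives also keep fewer cells.

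With the ranked cut-off alone B cells gave 0.588. With no doublet removal DCs gave 0.838, B cells 0.735 and macrophages 1.39. With gate factor 1 DCs gave 0.778, B cells 0.608 and monocytes 1.67, with 114 and 208 monocytes in the gate. With factor 4 the values were 1.07, 0.903, 1.64 for macrophages and 5.29 for monocytes. Thinning gave 0.770 in DCs, 0.865 in B cells and 3.05 in epithelial cells, and scaling by the median gene ratio gave 0.768, 0.767 and, in macrophages, 1.40. With cells weighted equally DCs gave 0.766, B cells 0.894, monocytes 6.03 and epithelial cells 1.40. With free RNA subtracted at the median estimate (2.53% in PBS and 2.54% in cmExoaCD11b), monocytes gave 14.5 and epithelial cells 21.8. The upper end of the PBS range, 212 CPM, exceeds the PBS levels of both types (143 and 90.0 CPM), so no ratio can be formed there.

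Among alternatives chosen after seeing the data, type 1 DCs alone gave 0.914 and B cells without Jchain 1.04. Cells with no marker UMI of another presenting type gave 0.928 in DCs, 0.820 in B cells and 2.19 in macrophages, and turned the direction in monocytes (0.696, with 6 and 8 cells left) and epithelial cells (0.949, with 7 and 9 cells). With so few cells they rest on 10 to 16 UMIs per library. In the same cells H2-Aa (0.0967) and H2-Ab1 (0) turned in monocytes, and H2-Eb1 (0.584) and Cd74 (0.681) in epithelial cells. In epithelial cells H2-Aa also turned with thinning (0.923) and equal weights (0.929), and H2-DMa with thinning (0). Of 429 alternative ratios of single members, 299 stayed within the interval of the reported value, 123 moved without a turn past 1 in a called value and 7 turned. Only called values could count as turned. Members below 2-fold that crossed 1, such as H2-Aa in the stricter DC gate, were not among the 7.

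With a minimum of 1 UMI instead of 50 the share of all genes past 2-fold rose from 11.4% to 39.0% in DCs, 5.37% to 30.1% in B cells, 7.41% to 36.4% in macrophages, 6.01% to 33.9% in monocytes and 5.17% to 31.1% in epithelial cells. Depth limited Ciita most, with 8 UMIs over both libraries in monocytes and 3 in epithelial cells.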

Other observations

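Neutrophils, the largest gate with 5012 and 4865 cells, held 153 CPM of the 4 transcripts in PBS and 268 in cmExoaCD11b (1.75). Cells with at least 1% of their UMIs in the 4 genes were 7 in PBS (0.140%) and 32 in cmExoaCD11b (0.658%), and held 16.5% and 62.2% of the transcripts. The other neutrophils were at 128 and 102 CPM. In the 32 cells macrophage markers were at 1158 CPM and neutrophil markers at 17317, against 66.5 and 64163 in the other neutrophils of the same library. Ciita was found in 22 and 112 UMIs of all neutrophils (ratio 3.88, 2.44 to 6.44). The part of other cell types in these values was not tested.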
